A study of Homo sapiens with 48 samples.

Results

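Exposure of macrophage-like THP-1 cells to the carbon material that the labels write as rCNT was compared with medium alone, over the whole transcriptome and by pathway. The 6 samples whose titles begin with rCNT, of 48 samples in the series, were taken by title, with no use of measured values. They were 3 samples of rCNT 24 h and 3 of rCNT 6 h. Each time had 6 control samples of its own, 12 in all. The labels also give each sample a code number and a letter. At each time the controls carry codes 1 and 6 and the rCNT samples code 2, each code with letters A, B and C. THP-1 is an established human leukaemia line of monocytic cells, and all cells, controls included, were first differentiated with PMA, a phorbol ester, into adherent cells that resemble macrophages. Exposed cells received 100 µg of material in fresh medium, and control cells had no material added. CNT is the usual abbreviation for carbon nanotube, and the labels do not spell out rCNT. The remaining samples of the series carry 5 other material names at the same times. RNA was measured on microarrays in 3 dyes, with 1 sample of each dye in each rCNT group and 2 of each dye in each control group. Each sample also has a labelled slide, array and date code, which were not terms of the main fit. Slides were not balanced: no control 24 h sample lies on slide 5 with rCNT 24 h replicate 1. Likewise, no control 6 h sample lies on slide 3 with rCNT 6 h replicate 2. The labels place rCNT 6 h replicates 1 and 3 on the same array. Nothing in the labels says that samples of a group came from separate cultures, so p-values measure a spread between samples of a group that may be technical. That spread was estimated over all 14 groups of the 48 samples, the other materials included. One line at one mass of material limits the groups as a model of a macrophage in tissue.

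Macrophages take up particles through scavenger and Fc receptors, wrap them in actin-driven membrane folds and pass them to acid lysosomes. Fibres too long or too stiff to be enclosed are known to stall this process, to raise oxidant production by the NADPH oxidase and to damage lysosomes. Lysosomal damage is a known trigger of the NLRP3 inflammasome, the complex that activates caspase-1 and releases interleukin-1, and NF-kB drives the cytokine and chemokine genes that recruit further cells.

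The labelled groups did not hold together, which bears on every value below. Likeness was taken as Pearson r across 20399 genes of each sample's deviation from the mean over all samples, and is given without a p because genes are not independent. Replicates 1 and 2 of rCNT 24 h had an r of 0.30, replicates 1 and 3 of -0.52, and replicates 2 and 3 of -0.10. Among rCNT 6 h samples the values were -0.13 for replicates 1 and 2, -0.33 for replicates 1 and 3, and -0.44 for replicates 2 and 3. The mean r within the control groups was 0.20 at 24 h and -0.0046 at 6 h. Between rCNT and control samples of the same time it was -0.05 at 24 h and -0.03 at 6 h.

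Position in the deposited table went with likeness more closely, and 5 of the 6 rCNT samples were most like a sample 20 or 40 columns away. The 6 rCNT samples correlated with samples 20 or 40 columns away with a mean r of 0.64 (lowest 0.38, highest 0.88, over 11 pairs), whatever the labels of those samples. rCNT 6 h replicate 2, in column 21, was most like Graphite 24 h replicate 3 in column 41, with an r of 0.88. rCNT 24 h replicate 1, in column 2, was most like Graphite 24 h replicate 2 in column 22, with an r of 0.87. The exception was rCNT 6 h replicate 3, which was most like control 24 h replicate 6, only 3 columns away, with an r of 0.63, against 0.57 and 0.58 with samples 20 or 40 columns away. Smooth marks on the array surface, which samples hybridised to one array share, also matched best between an rCNT sample and a sample 20 or 40 columns away, in 6 of 6 cases. The samples that the labels place on the same array as an rCNT sample had surface correlations between -0.61 and 0.15. Whether the labels stand beside the right columns was not tested here, no sample was moved to another group, and group names below stand for the labels as given.

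**Figure D1:**
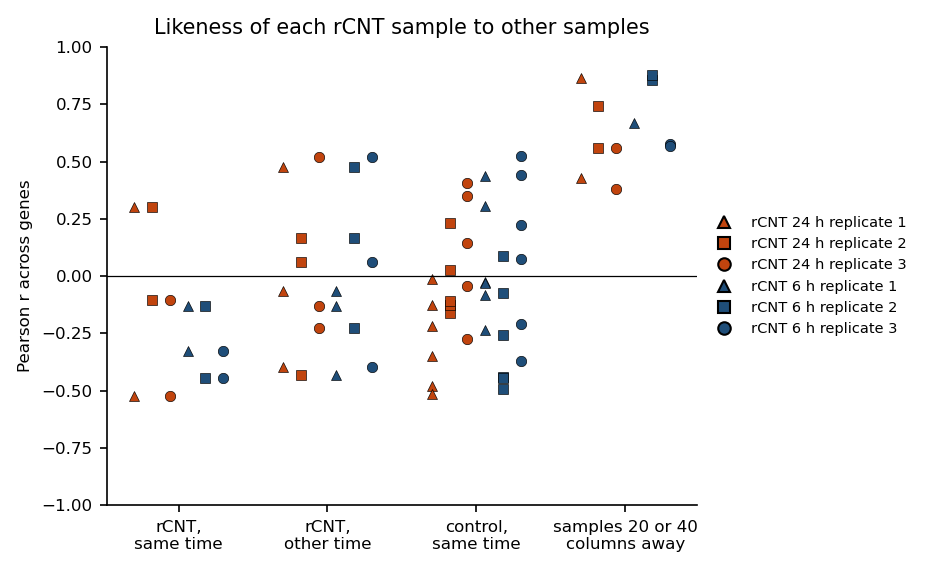
Pearson r across 20399 genes between each rCNT sample (colour by time, symbol by replicate) and 4 kinds of other samples, with r on the vertical axis. Pairs of the same label lie between -0.52 and 0.30, whereas the 11 pairs lying 20 or 40 columns apart in the table lie between 0.38 and 0.88.

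Of the 6 rCNT samples, 3 lay in columns 1 to 4, 21 to 24 and 41 to 44 of the table, namely rCNT 24 h replicates 1 and 2 and rCNT 6 h replicate 2. None of the 12 controls lay there. The 12 samples of those columns, which carry many labels, stood above all 36 other samples in 485 genes and below them all in 60 genes, a description made after the data had been seen. An effect of rCNT in these 3 samples cannot be told apart from whatever sets those columns apart, and results are therefore also given without them. Genes differing at least 2-fold from the mean of their controls made up 14.44% of genes in rCNT 24 h replicate 1, 6.66% in replicate 2 and 3.12% in replicate 3. In rCNT 6 h the shares were 3.19%, 13.25% and 6.12% for replicates 1, 2 and 3. Among controls, each set against the other 5 of its group, they ran from 1.40% to 3.73% at 24 h and from 3.28% to 5.64% at 6 h, apart from control 6 h replicate 5 at 24.23%.

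The first question was which genes differed between rCNT 24 h and control 24 h samples. No gene passed limma's test at an adjusted p of 0.05, 0 of 20399 (0%), with a lowest adjusted p of 0.9104. An unadjusted limma p under 0.05 was found for 917 genes (4.5%), 552 higher (2.71%) and 365 lower (1.79%). With no difference at all, such a threshold lets through a share near 0.05 on average, and genes are not independent. Across genes the SE of the log2 fold change had a median of 0.26. The named genes are therefore those with a mean log2 value of at least 8 whose 3 rCNT samples lay outside the range of the 6 controls, in order of unadjusted p, and they are described, not called. Of 10974 genes with such a mean, 217 lay wholly above the control range (1.98%) and 335 wholly below (3.05%). In bulk RNA, fewer cells of a type and less RNA per cell cannot be told apart.

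On the higher side, CBX5, the heterochromatin protein HP1 alpha, had log2 values of 13.34, 12.84 and 12.05 in rCNT 24 h replicates 1 to 3, against 11.20 to 12.00 (median 11.44) in control 24 h samples. Replicate 3 lay just above the highest control and the others far above it. The log2 fold change was 1.23 ± 0.40 (SE; limma adjusted p = 0.9104), and 0.38 when the 2 features of the gene were averaged. VEGFB, a member of the vascular endothelial growth factor family, had 14.00, 13.73 and 13.05 in rCNT 24 h, against 12.24 to 12.80 (median 12.54) in control 24 h, a log2 fold change of 1.09 ± 0.37 (SE). Leaving out the samples in columns 1 to 4, 21 to 24 and 41 to 44 left rCNT 24 h replicate 3 alone, with log2 fold changes of 0.33 for CBX5 and 0.40 for VEGFB. RAB13, a small GTPase of vesicle traffic, had 14.86, 14.89 and 15.25 in rCNT 24 h, against 13.47 to 14.48 (median 14.15) in control 24 h. Its log2 fold change was 0.91 ± 0.30 (SE), and 0.94 with replicate 3 alone. The 12 samples of those columns had RAB13 values of 14.43 to 15.05 (mean 14.795). The 36 others had 13.22 to 15.25 (mean 14.09). For VEGFB the 12 samples had 13.60 to 14.11, all above the 11.97 to 13.48 of the 36 others. In every named gene the mean of the 12 differed from that of the 36 in the same direction as rCNT from control. These were 10 higher and 10 lower genes at 24 h, 10 and 10 at 6 h, and 4 and 6 over both times. Only the direction was counted, and the 12 include 3 rCNT samples by which these genes were chosen. SMAP2, a regulator of Arf GTPases, stood at 0.92, SP9 and SP1, zinc-finger transcription factors of one family, at 0.79 and 0.73, NONO, an RNA-binding protein of nuclear paraspeckles, at 0.73, and ADIPOR1, an adiponectin receptor, at 0.69. The others of the 10 were SLC35F6 at 0.77 and TUBB3P2, a tubulin pseudogene whose signal is uncertain because it shares sequence with tubulin genes, at 0.87.

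On the lower side, FA2H, the fatty acid 2-hydroxylase, had 7.90, 8.93 and 9.41 in rCNT 24 h, against 9.56 to 10.43 (median 10.15) in control 24 h. Replicate 1 was far below the others, and replicate 3 lay close under the lowest control. Its log2 fold change was -1.29 ± 0.41 (SE; limma adjusted p = 0.9104). PROC, the anticoagulant protein C, had 9.01, 9.33 and 9.77 in rCNT 24 h, against 9.82 to 10.86 (median 10.44) in control 24 h, a log2 fold change of -1.02 ± 0.35 (SE). SDF2L1, a component of endoplasmic reticulum chaperone complexes, had 13.16, 13.10 and 13.45 in rCNT 24 h, against 13.73 to 14.42 (median 14.18) in control 24 h, a log2 fold change of -0.88 ± 0.30 (SE). For SDF2L1 the rCNT samples lay close together and all below the controls. The immediate early gene IER2 stood at -0.85, the Hippo pathway kinase gene LATS2 at -0.87, the interleukin-4 receptor gene IL4R at -0.73, and LINS1 at -0.93. MTRF1, a mitochondrial translation release factor, stood at -0.73, the small nucleolar RNA SNORA62 at -0.73 and GPKOW, a spliceosome-associated protein, at -0.54. With both features of IL4R averaged, its value was -0.17. With rCNT 24 h replicate 3 alone, the 20 named genes had log2 fold changes of 0.15 to 0.94 on the higher side and -0.57 to -0.16 on the lower, where the choice of genes outside the control range in every rCNT sample fixes the sign. Averaging features gave -0.32 for GPKOW.

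**Figure D2:**
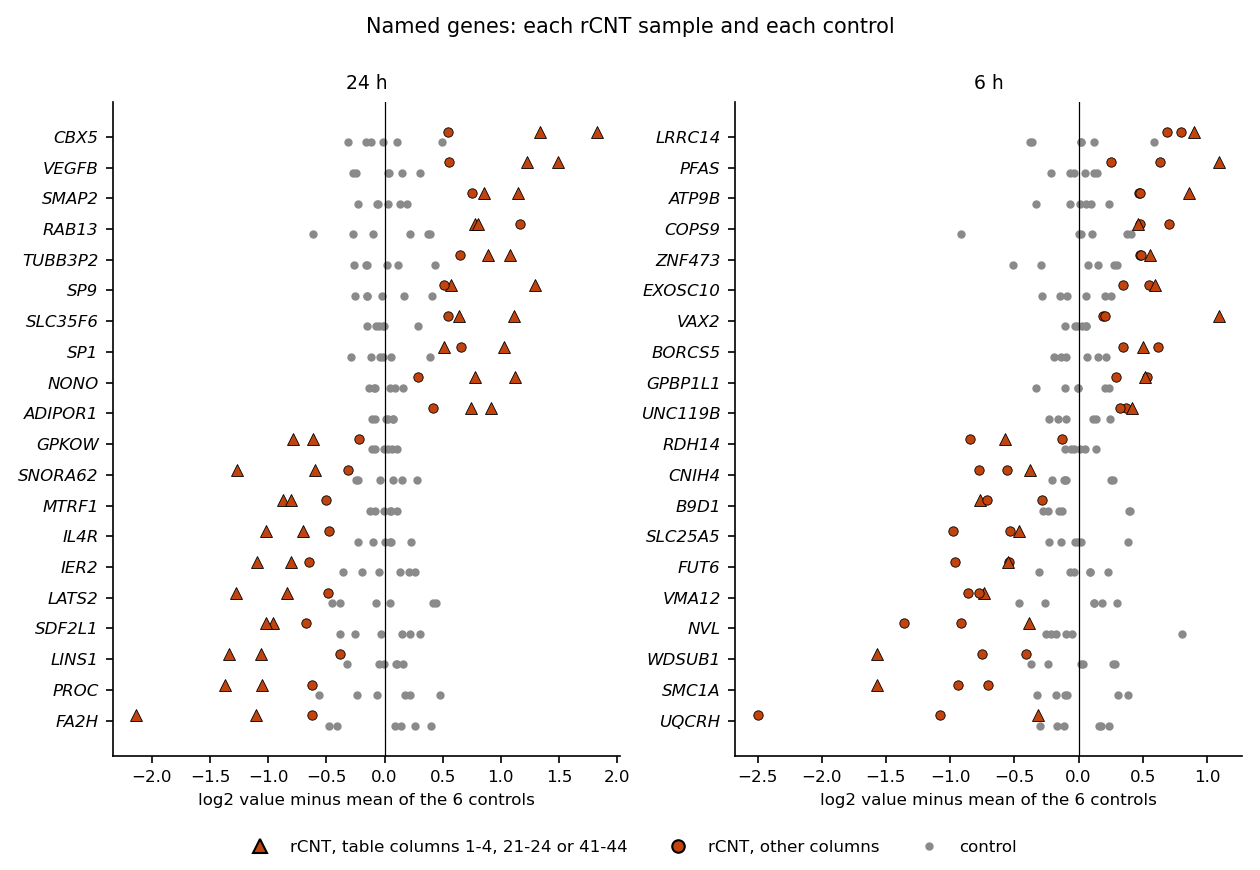
Log2 values of the named genes minus the mean of the 6 controls of the same time (horizontal axis), for each rCNT sample (orange) and, just under it, each control (grey). Triangles mark rCNT samples in table columns 1 to 4, 21 to 24 or 41 to 44. For CBX5, VEGFB and FA2H at 24 h both triangle samples lie farther from the controls than replicate 3, and for RAB13 replicate 3 lies farthest.

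At 6 h, 0 of 20399 genes passed (0%; limma, lowest adjusted p 0.9998), and 471 (2.31%) had an unadjusted p under 0.05, of which 305 were higher (1.5%) and 166 lower (0.814%) in rCNT 6 h. Of the genes with a mean of at least 8, 42 lay wholly above the range of the 6 h controls (0.383%) and 49 wholly below (0.447%).

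On the lower side at 6 h, UQCRH, a subunit of respiratory complex III, had 14.57, 15.33 and 13.15 in rCNT 6 h replicates 1 to 3, against 15.35 to 15.89 (median 15.67) in control 6 h samples. Replicate 3 was far lower than the others, and replicate 2 lay just under the lowest control. The log2 fold change was -1.30 ± 0.39 (SE; limma adjusted p = 0.9998), -0.67 without rCNT 6 h replicate 3 and -1.82 without replicate 2. SLC25A5, an ADP/ATP carrier of the inner mitochondrial membrane, had 14.58, 15.10 and 15.03 in rCNT 6 h, against 15.33 to 15.951 (median 15.54) in control 6 h, a log2 fold change of -0.66 ± 0.23 (SE). The deposited values end at 16.00, and the controls of SLC25A5, FUT6 and UQCRH came near that end, so the size of these differences is uncertain. SMC1A, a core subunit of the cohesin ring, had 10.47, 9.84 and 10.70 in rCNT 6 h, against 11.09 to 11.79 (median 11.31) in control 6 h, a log2 fold change of -1.07 ± 0.38 (SE). VMA12, an assembly factor of the vacuolar proton pump, had 11.43, 11.55 and 11.51 in rCNT 6 h, against 11.82 to 12.59 (median 12.41) in control 6 h. Its rCNT samples were nearly level, and the log2 fold change was -0.79 both with and without replicate 2. With sets of columns 20 or 40 apart as a random block, it was -0.40. NVL, an ATPase of ribosome assembly, stood at -0.89, CNIH4, a cargo receptor of the endoplasmic reticulum, at -0.57, and FUT6, a fucosyltransferase, at -0.69. The last of the lower genes were WDSUB1 at -0.91, B9D1, a protein of the ciliary base, at -0.59, and RDH14, a retinol dehydrogenase, at -0.52.

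Higher named genes at 6 h had smaller fold changes. PFAS, an enzyme of purine synthesis, had 8.60, 9.06 and 8.22 in rCNT 6 h, against 7.75 to 8.11 (median 7.97) in control 6 h, with a log2 difference of 0.66 ± 0.22 (SE; limma adjusted p = 0.9998), and 0.37 without rCNT 6 h replicate 2. LRRC14 had 10.02, 10.24 and 10.13 in rCNT 6 h, against 8.95 to 9.92 (median 9.35) in control 6 h, a log2 fold change of 0.80 ± 0.30 (SE). The rCNT samples of LRRC14 were close to each other and lay just above the highest control. EXOSC10, a nuclease of the nuclear RNA exosome, stood at 0.50, BORCS5, a subunit of a complex that positions lysosomes, at 0.49, COPS9, a COP9 signalosome subunit, at 0.55, and ZNF473, a factor of histone mRNA processing, at 0.51. GPBP1L1 stood at 0.45, UNC119B at 0.37, and ATP9B, of the phospholipid flippase family, at 0.60. The homeobox gene VAX2 stood at 0.50, and at 0.17 without rCNT 6 h replicate 2. Averaged over features, values at 6 h moved by over 1.5 times for ATP9B (0.24), UNC119B (0.14), COPS9 (0.30), UQCRH (-0.78), VMA12 (-0.48), FUT6 (-0.37), B9D1 (-0.24) and WDSUB1 (-0.35).

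Over both times pooled, 6 rCNT samples against 12 controls, 0 of 20399 genes passed (0%; limma, lowest adjusted p 0.6692). An unadjusted p under 0.05 was found for 1513 genes (7.42%), 1064 higher (5.22%) and 449 lower (2.2%). Without rCNT 24 h replicates 1 and 2 and rCNT 6 h replicate 2, an unadjusted p under 0.05 was found for 319 genes, and for 258 at 24 h and 438 at 6 h. Genes outside the control range at both times numbered 4 higher (0.0364%) and 6 lower (0.0547%) of 10974. The highest of them was CYBC1, a chaperone that the membrane subunits of the phagocyte NADPH oxidase need for their maturation. Its values were 12.12, 11.93 and 11.28 in rCNT 24 h, against 10.30 to 10.89 (median 10.38) in control 24 h. At 6 h they were 11.17, 12.62 and 10.83 in rCNT, against 10.00 to 10.83 (median 10.50) in control. The pooled log2 fold change of CYBC1 was 1.16 ± 0.34 (SE; limma adjusted p = 0.6692), 0.72 over the mean of its features, and 0.49 without the 3 samples. All 12 samples of columns 1 to 4, 21 to 24 and 41 to 44 had CYBC1 values of 11.77 to 12.62, above the 9.93 to 11.32 of the 36 others.

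Among the other genes outside the control range at both times, RNF44, a ubiquitin ligase, stood at 0.70 ± 0.25 (SE), SNX33, a sorting nexin that shapes membranes, at 0.55, and ATP9B at 0.54. RNF44 and SNX33 too were higher in all 12 samples of those columns than in the 36 others. On the lower side were PHAX, which exports small nuclear RNAs, at -1.14 ± 0.39 (SE), the calpain protease gene CAPN2 at -0.91, PROC and PSME3IP1 at -0.88, WDSUB1 at -0.68 and POT1, a telomere-capping protein, at -0.58. POT1 was lower in all 12 samples of those columns than in the 36 others. CAPN2 had 11.77, 13.01 and 12.93 in rCNT 24 h, against 13.26 to 13.53 (median 13.41) in control 24 h, and 12.54, 12.62 and 12.64 in rCNT 6 h, against 13.21 to 14.15 (median 13.48) in control 6 h. Without the 3 samples RNF44 stood at 0.24, SNX33 at 0.27, ATP9B at 0.35, PHAX at -0.44, CAPN2 at -0.67, PROC at -0.52, PSME3IP1 at -0.46, WDSUB1 at -0.36 and POT1 at -0.36. The mean over features was 0.26 for ATP9B, -0.49 for PROC, -0.27 for PSME3IP1 and -0.35 for WDSUB1. The difference between the 24 h and 6 h effects was called for 0 of 20399 genes (0%; limma), with 265 (1.3%) at an unadjusted p under 0.05, 86 on the positive side (0.422%) and 179 on the negative (0.877%).

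Pathways were described with 42 gene lists holding 555 distinct genes, of which 519 were measured; the rest, such as the mannose receptor gene MRC1, were not analysed here. No list member passed in any comparison (limma, adjusted p under 0.05). Over all genes the median log2 fold change was -0.01 at 24 h and 0.00087 at 6 h, with 47.7% of genes above 0 at 24 h and 50.2% at 6 h. Lists are given by these counts and medians, without a test. List medians lay between -0.43 and 0.65 at 24 h, and between -0.47 and 0.35 at 6 h.

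**Figure D3:**
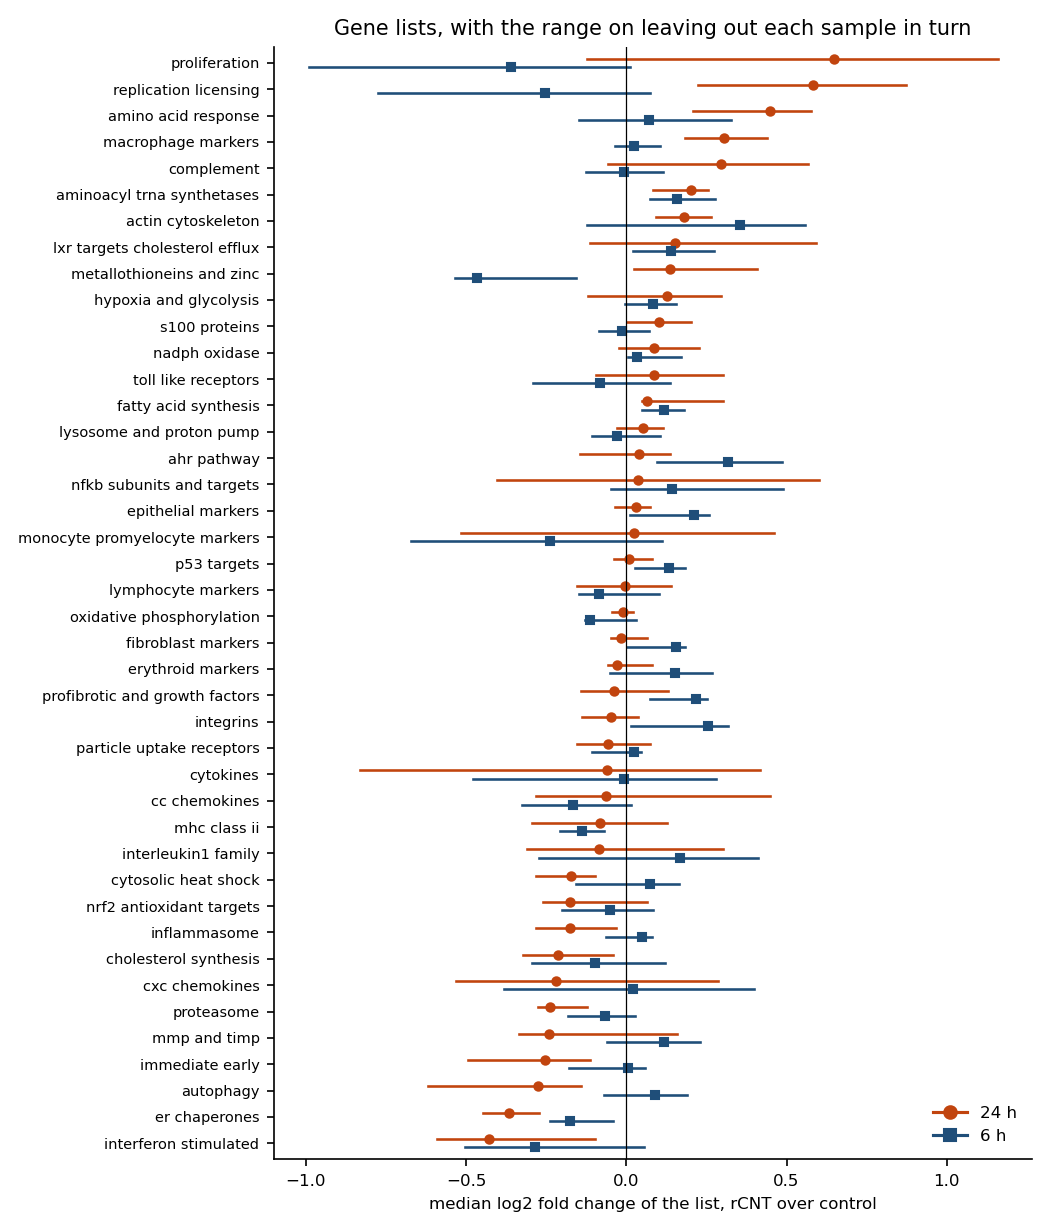
Median log2 fold change, rCNT over control, of the 42 gene lists at 24 h (orange circles) and 6 h (blue squares), with lines spanning the lowest and highest median on leaving out each rCNT or control sample of that time in turn. Proliferation has the highest median at 24 h, 0.65, and a line that crosses 0; ER chaperones lie at -0.37 with a line from -0.45 to -0.27.

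Receptors for particle uptake had medians of -0.06 at 24 h, with 7 of 15 members above 0, and 0.02 at 6 h, with 8 of 15. CD36, a scavenger receptor, had 13.95, 13.67 and 13.75 in rCNT 24 h, against 14.37 to 14.75 (median 14.47) in control 24 h. The groups did not overlap, and 3.05% of genes with a mean of at least 8 lay wholly below the 24 h controls. CD36 had a log2 difference of -0.73 ± 0.35 (SE; limma adjusted p = 0.9104), and rCNT 24 h replicate 3 alone gave -0.70. LRP1, a receptor of dying cells and lipoproteins, had 9.32, 8.82 and 7.62 in rCNT 24 h, against 7.51 to 7.90 (median 7.73) in control 24 h, so that replicate 3 lay within the controls. Integrins had medians of -0.05 at 24 h and 0.25 at 6 h. ITGB1, the beta subunit shared by many of them, had 12.39, 12.30 and 12.61 in rCNT 24 h, against 13.03 to 13.45 (median 13.22) in control 24 h, a log2 fold change of -0.80 ± 0.29 (SE).

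Actin cytoskeleton genes, which drive engulfment, had medians of 0.18 at 24 h (8 of 13 above 0) and 0.35 at 6 h (10 of 13). The mean level of the list was 14.95, 14.61 and 13.64 in rCNT 24 h replicates 1 to 3, against 13.77 to 14.04 in control 24 h. In rCNT 6 h it was 13.81, 14.95 and 13.68, against 13.38 to 14.00 in control 6 h. The high samples at both times were those in columns 1 to 4, 21 to 24 and 41 to 44, all 12 samples of which held 14.61 to 14.95, against 13.34 to 14.11 in the 36 others. TLN1, which encodes talin and links integrins to actin, followed the same split: it had 13.42, 13.01 and 10.10 in rCNT 24 h, against 9.61 to 10.34 (median 10.00) in control 24 h, and 8.77, 13.85 and 10.14 in rCNT 6 h, against 9.02 to 10.52 (median 9.94) in control 6 h. Its log2 fold change was 2.20 ± 1.06 (SE) at 24 h and 1.11 ± 1.06 (SE) at 6 h, and without the 3 samples -0.01 and -0.51. The list median at 6 h was -0.12 without rCNT 6 h replicate 2.

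Further genes with high folds showed this split, among them CD68, a lysosomal glycoprotein of macrophages, TGFB1, a cytokine of scar formation, PKM, a glycolytic kinase, JUND, an AP-1 factor, and CD74, the invariant chain of class II antigen presentation. At 24 h their log2 fold changes were 1.13, 1.41, 1.38, 1.99 and 1.70, and with rCNT 24 h replicate 3 alone -0.10, -0.39, -0.14, -0.42 and -0.32. In each of these 5 genes every one of the 12 samples in those columns was above all 36 others.

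Lysosomal and proton pump genes had medians of 0.05 at 24 h and -0.03 at 6 h. CTSB, the protease cathepsin B, had 13.45, 13.29 and 13.56 in rCNT 6 h, against 12.01 to 13.29 (median 12.72) in control 6 h, so that replicate 2 met the highest control; CTSB stood at 0.75 ± 0.36 (SE; limma adjusted p = 0.9998). Autophagy genes had a median of -0.28 at 24 h, with 2 of 10 above 0, and 0.09 at 6 h, with 6 of 10. Without rCNT 24 h replicate 3 the 24 h median was -0.62, and without replicate 1 it was -0.14. NADPH oxidase subunits had medians of 0.09 at 24 h and 0.03 at 6 h. RAC2, the GTPase that activates the oxidase, had 15.36, 15.81 and 15.55 in rCNT 6 h, against 14.91 to 15.29 (median 15.08) in control 6 h. The groups did not overlap, and 0.383% of genes with a mean of at least 8 lay wholly above the 6 h controls. RAC2 had a log2 fold change of 0.49 ± 0.23 (SE).

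Targets of NRF2, the regulator of antioxidant genes, had medians of -0.17 at 24 h, with 5 of 12 above 0, and -0.05 at 6 h, with 6 of 12. Metallothionein and zinc transport genes, which bind and move metal ions, had medians of 0.14 at 24 h and -0.47 at 6 h, where 1 of 10 members was above 0. The mean level of the list was 10.72, 10.83 and 11.30 in rCNT 6 h, against 10.33 to 11.76 (median 11.58) in control 6 h. All 3 rCNT samples lay below 5 of the 6 controls, and control 6 h replicate 5 lay below them. The median at 6 h ran from -0.53, without control 6 h replicate 5, to -0.16, without rCNT 6 h replicate 2.

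Inflammasome genes had medians of -0.18 at 24 h and 0.05 at 6 h, and interleukin-1 family genes of -0.08 and 0.17. IL1B, the main inflammasome product, had 15.00, 15.97 and 15.97 in rCNT 24 h, against 14.20 to 15.97 (median 15.79) in control 24 h, close to the end of the scale. IL1A had 6.85, 8.97 and 10.24 in rCNT 24 h, against 8.21 to 9.91 (median 9.60) in control 24 h, so that the rCNT samples lay below, within and above the controls. Cytokine, CXC chemokine and CC chemokine lists had medians of -0.06, -0.22 and -0.06 at 24 h and of -0.01, 0.02 and -0.17 at 6 h. Each of the 24 h medians was above 0 without rCNT 24 h replicate 1, at 0.42, 0.29 and 0.45. CXCL1, a neutrophil chemokine, had 8.41, 14.60 and 15.01 in rCNT 24 h, against 12.32 to 14.74 (median 14.15) in control 24 h, so that replicate 1 was far below the controls and replicate 3 above them. CCL2, the monocyte chemokine, had 9.38, 13.50 and 13.43 in rCNT 24 h, against 12.13 to 13.85 (median 13.01) in control 24 h, with the same low replicate.

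NF-kB subunits and targets had medians of 0.04 at 24 h, with 10 of 18 above 0, and 0.14 at 6 h, with 14 of 18. The mean level was 10.92, 12.64 and 12.34 in rCNT 24 h, against 11.27 to 12.26 in control 24 h, so that 1 rCNT sample lay below all controls and 2 above them. The median at 24 h ran from -0.40, without rCNT 24 h replicate 2, to 0.60, without replicate 1. NFKB2, a subunit of the non-canonical arm, had with a log2 difference of 2.67 ± 1.21 (SE; limma adjusted p = 0.9104) at 24 h. Its values were 10.62, 11.29 and 14.41 in rCNT 24 h, against 8.18 to 14.41 (median 8.46) in control 24 h, and the groups overlapped through 1 control. Immediate early genes had medians of -0.25 at 24 h and 0.01 at 6 h. EGR1, an early growth response factor, had 8.25, 11.87 and 12.16 in rCNT 24 h, against 11.30 to 13.70 (median 12.74) in control 24 h, a log2 fold change of -1.98 ± 1.20 (SE).

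Interferon-stimulated genes had the lowest 24 h median of all lists, -0.43, with 7 of 21 above 0, and -0.28 at 6 h, with 3 of 21 above 0. The 24 h median was -0.10 without rCNT 24 h replicate 1, and the 6 h median 0.05 without rCNT 6 h replicate 3. IFI44 had 11.00, 12.54 and 12.04 in rCNT 24 h, against 12.56 to 13.30 (median 12.65) in control 24 h, a log2 fold change of -0.95 ± 0.44 (SE). IFIT1, which binds viral RNA, stood at -0.83 ± 0.52 (SE) at 6 h.

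**Figure D4:**
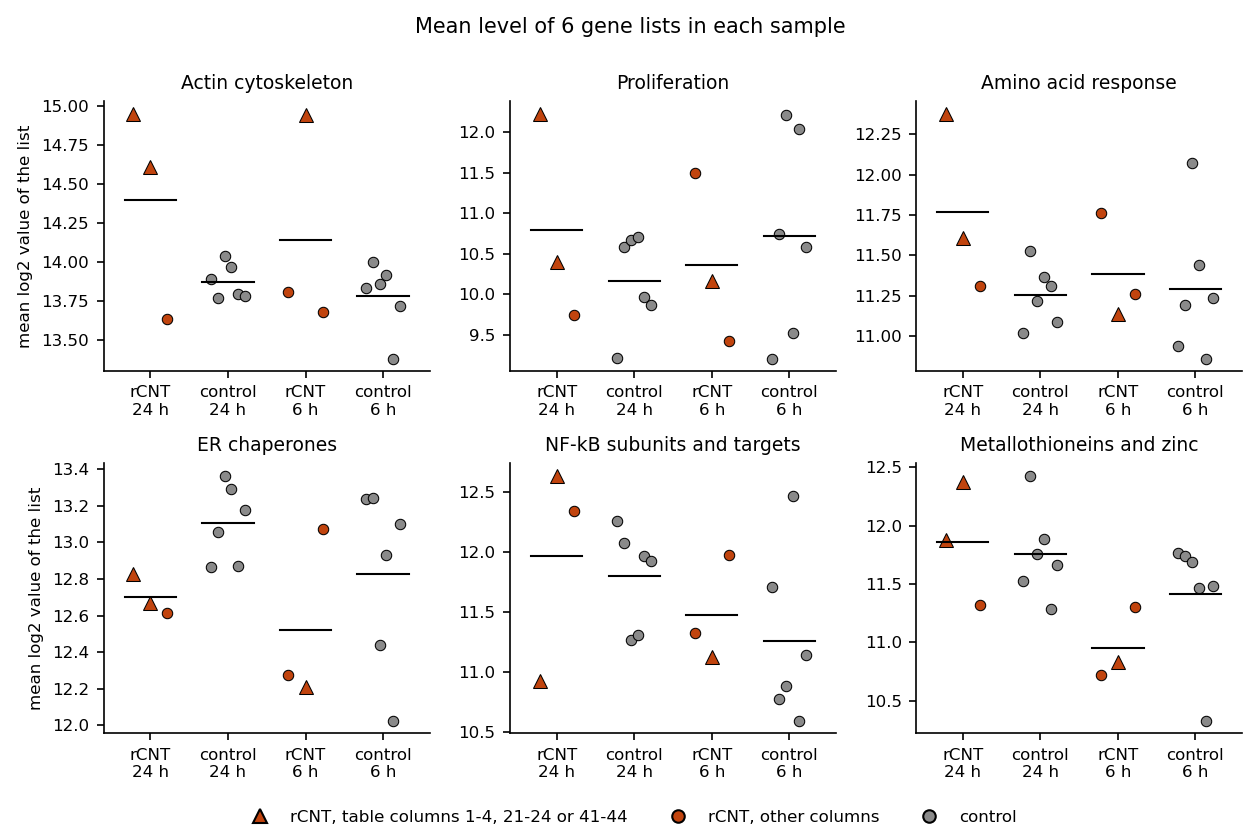
Mean log2 value of 6 gene lists (vertical axes) in each rCNT sample (orange) and control (grey) at 24 h and 6 h, with bars at the group means and triangles for rCNT samples in table columns 1 to 4, 21 to 24 or 41 to 44. The actin level is near 14.6 to 15.0 in the 3 triangle samples and under 14.1 in all other samples shown. The ER chaperone level at 24 h is lower in all 3 rCNT samples than in all 6 controls, with replicate 1 just under the lowest control.

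Chaperones of the endoplasmic reticulum (ER) had lower mean levels in every rCNT 24 h sample than in every control 24 h sample. The mean level was 12.82, 12.67 and 12.62 in rCNT 24 h, against 12.87 to 13.36 (median 13.12) in control 24 h. Replicate 1 thus lay just under the lowest control. The list was 1 of 42 looked at, and how many lists had no overlap was not counted. Of single genes with a mean of at least 8, 3.05% lay wholly below the 24 h controls. A mean over 15 members can move with 1 member of wide range, as MANF was at 6 h. Whether 1 member set the 24 h levels was not tested. The median log2 fold change was -0.37, with 4 of 15 above 0, 3 of 15 at an unadjusted p under 0.05 on the lower side (1.79% of all genes) and 0 past the adjusted threshold (limma). On leaving out each sample in turn it ran from -0.45 to -0.27. HSPA5, the main ER chaperone BiP, had 10.29, 10.58 and 11.96 in rCNT 24 h, against 11.83 to 12.84 (median 12.55) in control 24 h, and stood at -1.53 ± 0.70 (SE; limma adjusted p = 0.9104), and -0.20 with replicate 3 alone. With replicate 3 alone the list median was -0.20. At 6 h the list median was -0.17, with levels of 12.28, 12.21 and 13.07 in rCNT 6 h, against 12.03 to 13.24 (median 13.02) in control 6 h. MANF, a secreted ER stress protein, had 8.77, 7.61 and 15.62 in rCNT 6 h, against 8.39 to 15.67 (median 14.10) in control 6 h, spanning nearly the whole scale within each group.

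Genes of the amino acid response, which ATF4 controls, had a median of 0.45 at 24 h, with 15 of 16 above 0 and 2 of 16 at an unadjusted p under 0.05 (4.5% of all genes), and 0.07 at 6 h, with 9 of 16 above 0. The mean level was 12.38, 11.61 and 11.31 in rCNT 24 h, against 11.02 to 11.53 (median 11.26) in control 24 h. Replicates 1 and 2 lay above the controls and replicate 3 within them. The 24 h median was 0.21 without replicate 1 and 0.18 with replicate 3 alone. CHAC1, a glutathione-degrading enzyme of this response, had 12.03, 9.67 and 8.80 in rCNT 24 h, against 8.28 to 9.28 (median 8.72) in control 24 h, a log2 fold change of 1.34 ± 0.66 (SE). Aminoacyl-tRNA synthetases had medians of 0.20 at 24 h (12 of 19 above 0) and 0.16 at 6 h (15 of 19), both between 0.07 and 0.28 on leaving out each sample. Proteasome subunits stood at -0.24 and -0.07, and cytosolic heat shock chaperones at -0.17 and 0.08.

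Proliferation genes had the highest median at 24 h, 0.65, with 21 of 22 above 0, and a median of -0.36 at 6 h, with 1 of 22 above 0. The mean level was 12.23, 10.41 and 9.75 in rCNT 24 h, against 9.21 to 10.71 (median 10.28) in control 24 h. In rCNT 6 h it was 11.49, 10.17 and 9.43, against 9.21 to 12.21 (median 10.67) in control 6 h. At 24 h replicate 1 lay above all controls and the others within them, and at 6 h all 3 rCNT samples lay within the controls. The 24 h median was -0.12 without rCNT 24 h replicate 1, and the 6 h median 0.01 without control 6 h replicate 5. PLK1, a mitotic kinase, had 12.11, 9.28 and 7.61 in rCNT 24 h, against 7.49 to 8.50 (median 8.07) in control 24 h, with a log2 difference of 1.59 ± 0.76 (SE; limma adjusted p = 0.9104). Replication licensing genes stood at 0.58 at 24 h (14 of 14 above 0) and -0.25 at 6 h (2 of 14), and CDT1, a licensing factor, at 1.70 ± 0.74 (SE) at 24 h. The effect at 24 h minus that at 6 h had medians of 1.15 for proliferation (22 of 22 above 0), 0.81 for licensing (14 of 14) and 0.62 for metallothioneins (8 of 10), with 49.1% of all genes above 0 and 0 members called (limma) in each. Without the 3 samples these medians were -0.07, 0.11 and 0.03.

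Lipid and energy lists had medians close to 0. Cholesterol synthesis stood at -0.21 at 24 h and -0.10 at 6 h, fatty acid synthesis at 0.06 and 0.12, LXR targets at 0.15 and 0.14, oxidative phosphorylation at -0.01 and -0.11, and hypoxia and glycolysis genes at 0.13 and 0.08. FADS2, a fatty acid desaturase, had 12.69, 10.95 and 9.96 in rCNT 24 h, against 9.67 to 10.18 (median 10.06) in control 24 h, with replicate 3 within the controls. Targets of p53 had medians of 0.01 and 0.13. MDM2, the ligase that degrades p53, had 8.76, 12.37 and 8.47 in rCNT 6 h, against 8.36 to 9.02 (median 8.46) in control 6 h, with replicate 2 alone above the controls. The AHR pathway stood at 0.04 and 0.32, matrix metalloproteases and inhibitors at -0.24 and 0.12, profibrotic and growth factors at -0.04 and 0.22, S100 proteins at 0.10 and -0.01, class II antigen presentation at -0.08 and -0.14, complement at 0.29 and -0.01, and Toll-like receptor genes at 0.09 and -0.08. The complement median at 24 h was -0.06 without rCNT 24 h replicate 1.

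Macrophage markers were present in all samples, at a mean level of 13.54, 13.24 and 13.20 in rCNT 24 h, against 12.71 to 13.25 (median 13.05) in control 24 h, and 13.07, 12.59 and 13.20 in rCNT 6 h, against 12.84 to 13.08 (median 12.94) in control 6 h. Their medians were 0.30 at 24 h and 0.02 at 6 h, with 8 of 11 above 0 at both. Monocyte and promyelocyte markers, which mark less differentiated cells, stood at 0.02 at 24 h and -0.24 at 6 h. Their level was 11.14 in rCNT 24 h replicate 1, 9.25 and 9.10 in replicates 2 and 3, against 8.82 to 10.67 in control 24 h. At 24 h replicate 1 was highest both in these markers and in proliferation. At 6 h the marker level was 10.25, 10.86 and 8.80 in rCNT replicates 1 to 3, against 9.34 to 10.78 in control, with replicate 2 highest, whereas proliferation was highest in replicate 1. The part of these markers in the result was not tested. Epithelial markers had levels of 7.19 to 7.53 in rCNT 24 h, against 7.07 to 7.55 in control 24 h, and fibroblast markers of 7.04 to 7.33, against 7.09 to 7.25, near the lowest value of the table, 6.05. COL3A1, a fibrillar collagen of fibroblasts, had 9.62 in rCNT 6 h replicate 1, 6.72 and 6.61 in replicates 2 and 3, against 6.60 to 6.86 (median 6.69) in control 6 h. At 6 h epithelial markers had levels of 7.39 to 7.68 in rCNT, against 7.19 to 7.64 in control, with 2 of 8 at an unadjusted p under 0.05 on the higher side (1.5% of all genes). Lymphocyte and erythroid markers had medians of -0.0049 and -0.03 at 24 h and of -0.08 and 0.15 at 6 h.

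The spread of the fold changes was set beside that of tCNT and Baytube, all measured against the same controls. The SD of log2 fold changes over all genes at 24 h was 0.40 for rCNT, 0.37 for tCNT and 0.28 for Baytube. At 6 h it was 0.33 for rCNT, 0.37 for tCNT and 0.26 for Baytube. The shared controls enter each of these values, and the differences between materials were not tested. The groups also differed in samples from columns 1 to 4, 21 to 24 and 41 to 44. At 24 h these were rCNT replicates 1 and 2, tCNT replicate 3 and Baytube replicate 3. At 6 h they were rCNT replicate 2 and tCNT replicate 1, with none from Baytube. An effect of material cannot be told apart from this difference. Within groups, the median SD of a gene was 0.30 in rCNT 24 h and 0.21 in control 24 h, and 0.35 in rCNT 6 h and 0.34 in control 6 h.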

How the data were processed

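Values were the log2 values of 45220 array features in 48 samples, as deposited by the authors, from 6.05 to 16.00, with sample medians of 7.68 to 7.70. Per the submitters' processing notes, the tools were R 2.3 and limma; the background correction and normalization behind the values are not given in the sources used here. Sample groups came from titles and columns were matched to samples by name. Symbols of a platform table were updated through a RefSeq table, and the feature with the highest mean stood for each of 20399 genes. One limma 3.58.1 fit (R 4.3.3) held all 48 samples in 14 groups with dye as a term (32 residual degrees of freedom). P-values were Benjamini-Hochberg adjusted over all genes at 0.05. The labelled array had a consensus correlation of -0.0224 and was not used as a block.

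Named genes were the called ones, filled with genes of mean at least 8 outside the control range, in order of unadjusted p, up to 10 in each direction; of each list described, the members with the highest and lowest fold changes were added. The samples, gene lists and rules were chosen with earlier results of these data known. Surface marks were read from feature order in rows of 85 spots, as medians over 11 by 11 spots. Same-letter samples of rCNT and control correlated in their deviations with a mean r of 0.08 (lowest -0.42, highest 0.45). Same-numbered ones had a mean r of -0.13 (lowest -0.31, highest 0.37). Neither was taken as pairing, but these values rest on the labels as given and cannot exclude it. The number of arrays limits the precision. Alternatives covered blocks, terms, normalization, dim-gene filters, the mean of features, variance models, subsets of controls, and leaving out each sample; leaving out the 3 rCNT samples in columns 1 to 4, 21 to 24 and 41 to 44 was added after seeing the data.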

Additional observations from a re-analysis of the deposited data

Results flagged for a closer look

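In 13 of 124 checks of a control group of 6 samples, 1 sample stood apart from the others by more than Dixon's 95% limit for a gap; chance flags about 1 in 20 groups. Control 6 h replicate 5 stood apart in 5 of them, with list levels of 10.33 for metallothioneins (other 6 h controls 11.46 to 11.76), 12.49 for cytosolic heat shock genes (13.29 to 13.62), 12.29 for aminoacyl-tRNA synthetases (12.59 to 12.71) and 10.20 for cholesterol synthesis (11.50 to 12.10), and a value of 12.89 for NVL (11.82 to 12.03). Control 6 h replicate 4 had 10.20 for cytokines (8.01 to 8.81) and 13.21 for S100 proteins (12.19 to 12.46). Control 6 h replicate 6 had 6.71 for erythroid markers (6.94 to 7.03), and control 6 h replicate 3 had 12.53 for COPS9 (13.45 to 13.86).

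At 24 h, control replicate 4 had 12.46 for NRF2 targets (other 24 h controls 11.80 to 12.01), and replicate 6 had 11.51 for inflammasome genes (11.89 to 12.10). Control 24 h replicate 1 had 10.60 for LXR targets (11.35 to 11.71) and 10.09 for SLC35F6 (9.65 to 9.80). The rCNT groups, with 3 samples each, were too small for this check. No difference between the 24 h and 6 h effects passed limma's threshold.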

How the results depend on the processing

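The count of called genes (limma) was 0 in each comparison on leaving out each sample in turn (0 to 0), and in all but 2 of the other settings. With the title number as a term in place of dye, 2 genes were called over both times. FPGS stood at 1.296 ± 0.22 (SE) and LINC00999 at 0.95 ± 0.17 (SE). Each had a limma adjusted p of 0.0269, against 0.6692 in the main fit. Title numbers 4 to 6 occur only in controls, so on the control side this comparison rested on replicates 1 to 3. Their dyes were Cy5, Cy5 and Cy3 at each time, against Cy5, Cy3 and a488 in rCNT, with no dye term. Title numbers were not taken as pairing, and this term changed no other call. With the letter of the sample code as a block, 0 genes were called. Without the 3 rCNT samples in columns 1 to 4, 21 to 24 and 41 to 44, 2 genes were called at 24 h, 2 over both times and 2 for the difference between times, in each case CYP11B2 and MMEL1 (limma adjusted p from 1.77e-05 to 0.00522). Both rest on rCNT 24 h replicate 3, assumed to vary like the other groups, which had the highest value of all 48 samples, 8.51 for CYP11B2 and 8.58 for MMEL1.

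The number of genes at an unadjusted p under 0.05 at 24 h ran from 398 (controls of code 1 alone) to 2870 (only the groups compared), and at 6 h from 121 (genes with a mean under 10 left out, so that fewer were tested) to 1147 (slide as a term). Over both times it ran from 583 with sets of columns 20 or 40 apart as a random block to 2323 with rCNT and control samples alone. Without rCNT 24 h replicate 1 it was 333 at 24 h, and without replicate 3 2402; at 6 h it was 1299 without rCNT 6 h replicate 3. Without the 3 samples it was 258 at 24 h, 438 at 6 h and 319 over both times, with fewer samples. With sets of columns 20 or 40 apart as a random block, every named gene had a smaller fold change. At 24 h, log2 fold changes went from 0.91 to 0.42 for RAB13, from 1.09 to 0.45 for VEGFB and from -0.85 to -0.65 for IER2. At 6 h PFAS went from 0.66 to 0.23, and over both times CYBC1 went from 1.16 to 0.46. Over all described genes, list members included, 276 of 9085 fold changes turned sign; the choice of the named genes leaves theirs little room to turn. In the lists, 133 of 168 list medians turned sign in at least 1 setting. The cause was not tested. Values near 16.00 limit sizes at the top of the scale, and signal over background was not examined at the bottom.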
